A study of Drosophila melanogaster with 2 samples.

Results

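The genes described here are 9 members of the zinc finger associated domain (ZAD) family of Drosophila melanogaster: pita, ZIPIC, dwg, M1BP, wek, grau, Zif, ouib and hang. They were chosen by name, and all 9 were matched among 13968 annotated protein-coding genes. Chromatin immunoprecipitation followed by sequencing mapped the protein of CG3847, tagged with eGFP and precipitated with an antibody against GFP, in whole embryos aged 0 to 24 h. The series holds 1 group of transgenic embryos expressing the CG3847-eGFP fusion, with 2 biological replicates, and both libraries carry the tagged protein. The labels name CG3847 as the antibody target in a further field. There was no second condition and no control library was used here, so a peak is reported as a peak and not as proof that CG3847 bound there. Whole embryos mix many cell types and ages, so signal in few cells and weak signal in many cannot be told apart.

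ZAD proteins carry an amino-terminal domain in which cysteines hold a zinc ion and through which the proteins pair with each other, followed by C2H2 zinc fingers that contact DNA. The family is large in insects. Several members act at promoters and at chromatin boundaries, and others regulate single pathways in the ovary, the nervous system or the hormone gland of the larva. The protein translated from the longest annotated coding sequence of CG3847 held 380 residues with 2 C2H2 finger patterns, and the ZAD pattern used here was not found in it.

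Of the 9 genes, 6 had a promoter peak in the optimal set, the peak list made from both replicates. A promoter peak is one whose summit lies within 500 bp of an annotated transcription start site (TSS). These were M1BP, pita, Zif, hang, grau and ZIPIC. No promoter peak passed the threshold at dwg, wek and ouib, and none of the 9 genes had a further optimal peak elsewhere in its span. Peaks passed at an irreproducible discovery rate (IDR) of 0.01, the expected share of peaks that do not rank alike when data sets are compared. Across all protein-coding genes, 31.0% had such a promoter peak in the optimal set, and 35.4% had one there or in the gene span. No test was made of the members' count, since the genes were listed with earlier results of these data known.

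The sequences at ZIPIC, hang, M1BP and wek are shown because they place short promoter motifs relative to the peaks, with and without a peak. They are from the Release 6 reference (dm6), read 5′ to 3′ on the strand of the gene, and they hold intergenic bases only, apart from the ZIPIC site, which lies within the ZIPIC gene, downstream of its TSS. Capitals mark the letters of 6 motifs searched on both strands: the core of the element bound by M1BP (GGTCACAC), the DNA replication-related element or DRE (TATCGATA), the core bound by BEAF-32 (CGATA), the GAGA repeat (GAGAG), the TATA box (TATAAA) and an E-box (CAGCTG). The DRE contains the BEAF-32 core on both strands.
ZIPIC site at 3R:30036824-30036853, minus strand: cttcagggcacGGTCACACtgccccgaaag
ZIPIC upstream of the TSS at 3R:30036871-30037002, minus strand: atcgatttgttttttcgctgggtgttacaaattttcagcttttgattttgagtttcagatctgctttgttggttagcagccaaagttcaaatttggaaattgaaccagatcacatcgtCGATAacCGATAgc
hang around the summit at X:16422692-16422830, plus strand: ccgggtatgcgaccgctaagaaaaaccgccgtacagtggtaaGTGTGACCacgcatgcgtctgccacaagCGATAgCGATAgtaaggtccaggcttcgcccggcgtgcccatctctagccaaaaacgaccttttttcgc
M1BP around the summit at 3R:8731937-8732086, minus strand: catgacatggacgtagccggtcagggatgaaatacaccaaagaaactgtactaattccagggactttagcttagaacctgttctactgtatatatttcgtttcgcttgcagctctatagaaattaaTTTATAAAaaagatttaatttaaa
wek upstream of the TSS at 2L:15768350-15768499, minus strand: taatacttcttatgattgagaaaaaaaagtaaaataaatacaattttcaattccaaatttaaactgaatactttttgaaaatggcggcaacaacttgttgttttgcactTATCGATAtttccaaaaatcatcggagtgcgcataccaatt

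Within 100 bp of the summit, the M1BP core was found at 3 of the 6 optimal peaks of these genes, those of ZIPIC, hang and grau, with its centre 30 to 43 bp from the summit. It was found at 10.4% of the 3481 optimal peaks at protein-coding promoters, and at 6.74% of windows of the same length on the outermost TSS of every protein-coding gene. The peak of the M1BP gene itself held no copy of the core in that window. The BEAF-32 core was found at 4 of the 6 peaks, those of pita, ZIPIC, grau and hang, against 45.8% of the promoter peaks and 39.3% of the TSS windows. In ZIPIC and hang it was present as a closely spaced pair, and the hang pair flanked the summit, with centres 3 bp to either side. The grau peak also held a pair, wider apart, with centres at −34 and −15 bp from the summit in genome coordinates. How often such pairs occur at other promoter peaks was not counted. A DRE was found at none of the 6 peaks, against 10.7% of the promoter peaks and 7.83% of the TSS windows. GAGAG was likewise found at none of the 6, against 20.2% of promoter peaks and 22.5% of TSS windows. The TATA box letters stood at 1 of the 6, M1BP, against 29.9% of promoter peaks and 29.2% of TSS windows. The E-box letters also stood only at M1BP among the 6, beyond the stretch printed above, against 15.2% of promoter peaks and 13.8% of TSS windows. The 3 genes without a peak were searched in other windows, of up to 150 bp upstream of the TSS, to which these shares do not apply. That of wek held a DRE, and those of dwg and ouib held none of the 6 motifs. The upstream window of Zif, which has a peak, held a BEAF-32 core and the TATA box letters. These matches are letters in a window and were not tested as sites.

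**Figure D1:**
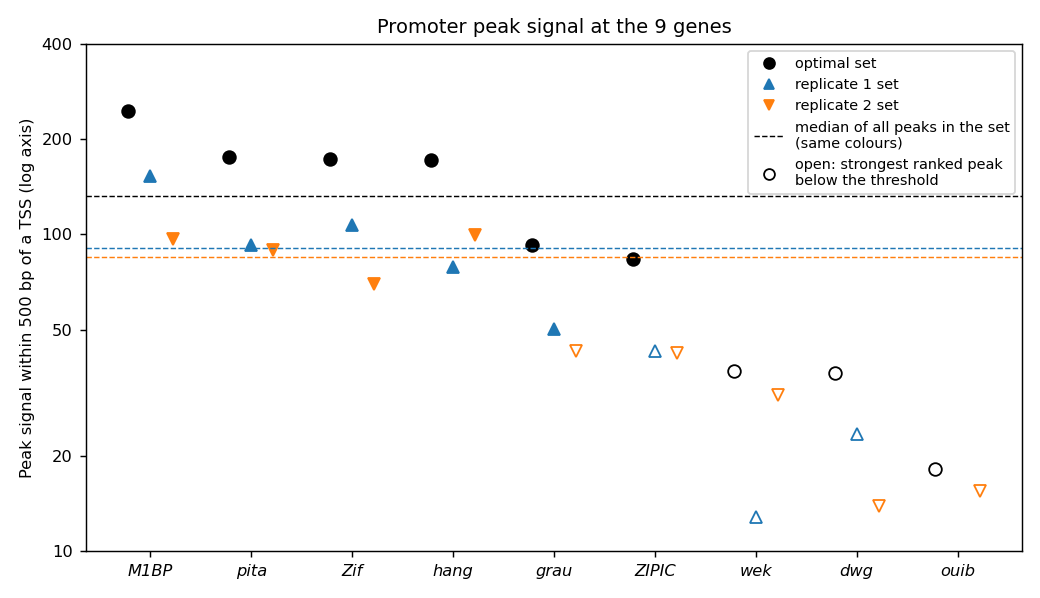
Highest peak signal within 500 bp of a TSS (log axis) for each of the 9 genes in the optimal set (circles), the replicate 1 set (upward triangles) and the replicate 2 set (downward triangles); open symbols give the strongest ranked peak where none passed the threshold, dashed lines the median of all peaks in each set, and ouib has no ranked promoter peak in replicate 1. The optimal signals of M1BP, pita, Zif and hang lie above the median of 132, and those of grau and ZIPIC below it.

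The first group holds the architectural proteins. The gene pita encodes a DNA-binding protein that recruits the insulator cofactor CP190 (FBgn0034878, 2R:23548967-23554712, minus strand). Its only peak spanned 2R:23554410-23554799, with the summit 107 bp downstream of the upstream TSS, in the 5′ UTR. The signal, the peak caller's own value as the authors deposited it, was 176 in the optimal and conservative sets. It was 92.3 in the replicate 1 set and 89.4 in the replicate 2 set. The replicates were close together at this gene, with a log2 ratio of replicate 2 over replicate 1 of −0.05. Over 6067 optimal peaks with a value in both replicates, that ratio had a median of −0.18 and quartiles of −0.49 and 0.18. The optimal pita peak ranked 2165 among 6148 peaks on the major chromosomes.

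ZIPIC, the gene of another CP190-interacting protein (FBgn0039740, 3R:30035240-30036870, minus strand), had the weakest peak of the 6. It spanned 3R:30036675-30037064 with its summit on the TSS itself, and its signal was 83.4 in the optimal and conservative sets, rank 4911 among the optimal peaks. No peak passed the threshold in either replicate set. The ranked table of replicate 1, which lists peaks of any strength, gave 42.9 with a global IDR of 0.79, and that of replicate 2 gave 42.1 with 0.026. The ranked summits of the replicates were 105 bp apart, more than at any of the other 5 peaks, where the gap was 4 to 18 bp. The signals thus nearly coincided (log2 ratio −0.03), while the threshold was passed only when both libraries entered the list.

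The architectural gene without a peak was dwg, which encodes the insulator protein Zw5 of the scs boundary (FBgn0000520, X:2727698-2730042, plus strand). Its strongest ranked peak within 500 bp of the TSS had a pooled signal of 36.6 and a global IDR of 0.50. The ranked values there were 23.45 in replicate 1 and 13.9 in replicate 2. A ranked peak of 45.9 lay 1509 bp downstream of the TSS, with a pooled global IDR of 0.61.

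M1BP, which encodes a factor that binds core promoters and is linked to paused RNA polymerase (FBgn0037621, 3R:8729790-8731698, minus strand), had the highest promoter signal of the 9. The peak spanned 3R:8731946-8732095, with its summit in intergenic sequence, and its signal was 245 in the optimal and conservative sets, rank 1315 of 6148. The replicate 1 set gave 153 and the replicate 2 set 96.6, a log2 ratio of −0.66, which lies below the lower quartile of all peaks. The summit was 314 bp upstream of the M1BP TSS but only 79 bp upstream of the TSS of CG8202 (FBgn0037622), which starts 393 bp away on the other strand. Which of the 2 genes the peak belongs to cannot be told apart from these files. At 150 bp it was also narrower than the other 5, which were all 390 bp wide, as were 75.9% of the optimal peaks.

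Of the genes for pathway regulators, grau and Zif had peaks and ouib had none. The gene grau encodes an activator of cortex needed to complete meiosis in the egg (FBgn0001133, 2R:21009764-21011921, minus strand). Its peak at 2R:21011741-21012130 had a signal of 92.6 in the optimal and conservative sets, rank 4459. Replicate 1 gave 50.3, past the threshold with a global IDR of 0.0082. Replicate 2 gave 42.9 in the ranked table, with a global IDR of 0.22, and no peak in its thresholded set. The summit lay in the 48 bp of intergenic sequence between grau and CG9346 (FBgn0034572), 15 bp upstream of the former's TSS and 34 bp upstream of the latter's.

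Zif encodes a regulator of the polarity kinase gene aPKC in neural stem cells (FBgn0037446, 3R:6457088-6458822, plus strand). Its peak at 3R:6456977-6457366 had a signal of 173 in the optimal and conservative sets, rank 2208. The replicate 1 set gave 107 and the replicate 2 set 69.6, a log2 ratio of −0.62. The summit lay in the 5′ UTR, 32 bp downstream of the nearer of 2 annotated TSSs, and 496 bp upstream of a TSS of CG9727 on the other strand. The replicate 1 set alone held another peak at 3R:6457196-6457555, with its summit in a coding exon and a signal of 2.27, rank 4437 of 4445. That peak overlapped the stronger one and shared its score of 1000. Such peaks were not particular to Zif: 6.55% of the replicate 1 peaks overlapped a stronger peak of the same set, with a median signal of 10.1 against 95.6 for the rest.

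The gene ouib encodes a regulator of the steroid hormone enzyme gene spok in the larval prothoracic gland (FBgn0037618, 3R:8725479-8726730, plus strand). Its strongest ranked promoter peak had a pooled signal of 18.1 and a global IDR of 0.85. Replicate 1 listed no peak of any strength within 500 bp of the TSS, and replicate 2 gave 15.4. A ranked peak of 50.9 lay 710 bp downstream of the TSS, with a pooled global IDR of 0.53.

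The last pair are genes of signalling and behaviour. The gene hang, whose loss alters the tolerance of adult flies to ethanol, is by far the longest of the 9 (FBgn0026575, X:16422831-16438454, plus strand, 15624 bp). Its peak at X:16422572-16422961 had a signal of 172 in the optimal and conservative sets, rank 2231. It gave 78.8 in the replicate 1 set and 99.6 in the replicate 2 set. Of the 6 genes, hang alone had the higher value in replicate 2, with a log2 ratio of 0.34. The summit was intergenic, 64 bp upstream of the TSS. Within 100 bp of it, G and C made up 52.2% of the bases, against 33.8 to 40.8% at the other 5 summits and a median of 37.8% (quartiles 32.8 and 43.3%) at all promoter peaks. The pooled ranked table held 22 peaks of any strength in the promoter and span of hang, and only the promoter peak was past the threshold.

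The gene wek, whose product links the Toll receptor to the adaptor Myd88 (FBgn0001990, 2L:15766133-15768349, minus strand), had no peak. Its strongest ranked promoter peak had a pooled signal of 37.0 and a global IDR of 0.72. The highest ranked promoter values were 12.8 in replicate 1, 496 bp downstream of the TSS, and 31.1 in replicate 2, 58 bp downstream. These replicate peaks did not overlap each other, and the pooled summit lay 195 bp downstream. Values of this kind were common: of 9638 protein-coding genes without an optimal promoter peak, 68.7% had a ranked peak within 500 bp of a TSS, with a median highest signal of 35.4 and quartiles of 23.7 and 49.2. On that scale wek and dwg stood at the 53.6 and 52.5 percentiles and ouib at 15.01.

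Set in order, the optimal promoter signals ran from M1BP (245) through pita (176), Zif (173) and hang (172) to grau (92.6) and ZIPIC (83.4). The values of pita, Zif and hang lay close together, from 172 to 176, and their order was not tested. The median over the 6 was 173, and the median of the strongest promoter signal over the 4330 protein-coding genes with an optimal promoter peak was also 173 (quartiles 113 and 290). M1BP thus stayed below the upper quartile, and grau and ZIPIC lay below the lower one. At CG3847 itself, the gene that the labels name as targeted by the strain's insertion, the promoter signal was 1194, with 448 and 745 in replicates 1 and 2. Whether the insertion affects that signal was not tested.

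The sets made from each library alone held fewer of the genes. The conservative set had promoter peaks at the same 6 genes, against 30.3% of all protein-coding genes (34.6% with the gene span). In the replicate 1 set 5 of 9 had one, against 23.8% (27.6%), and in the replicate 2 set 4 of 9, against 26.4% (29.5%). ZIPIC was missing from both replicate sets and grau from that of replicate 2. The 4 genes present in every set, M1BP, pita, Zif and hang, were also those left at a global IDR of 0.001.

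**Figure D2:**
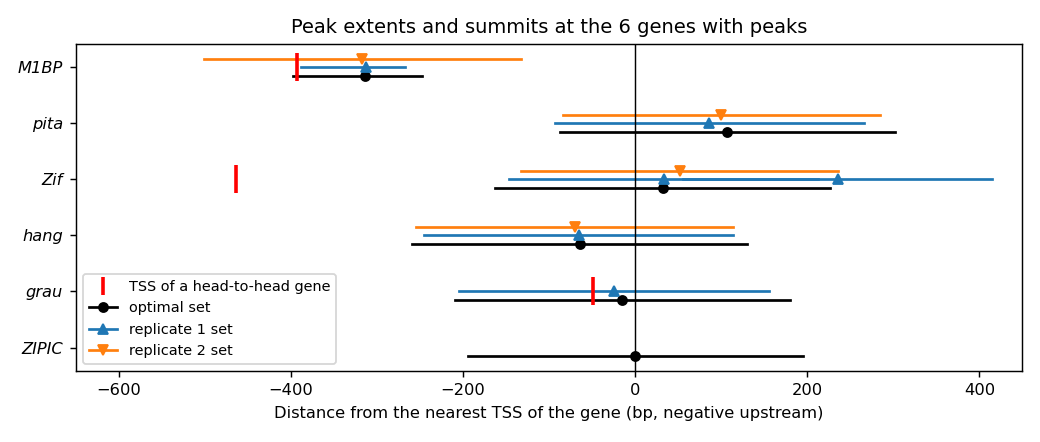
Extent (lines) and summit (symbols) of the peaks at the 6 genes in bp from the nearest TSS of each gene, negative upstream, for the optimal set, the replicate 1 set and the replicate 2 set; red ticks mark the TSS of a gene on the other strand within 500 bp of the optimal summit. In the optimal set the M1BP summit lies at −314 bp, near the start of CG8202, and those of the other 5 genes between −64 and 107 bp; in the replicate sets hang reaches −70 bp and the weak second Zif peak lies at 236 bp.

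In the optimal set, all summits apart from that of M1BP lay within 107 bp of the gene's own TSS, and the median distance to the nearest TSS over all optimal promoter peaks was 80 bp. In the optimal set 3 of the 6 summits, those of M1BP, grau and Zif, were also within 500 bp of the TSS of a gene on the other strand. The 3 genes without a peak had no protein-coding TSS on the other strand within 1000 bp upstream. They shared that with pita and ZIPIC. How often other promoter peaks, or other genes without a promoter peak, have such a neighbour was not counted. These counts therefore set the members apart from no other genes. In the replicate 2 set the hang summit came within 496 bp of a TSS of AnxB11 as well. The 3 genes of replicate values nearest to those of M1BP, CG9775, MED31 and slx1, all take them from 1 shared promoter peak with 151 and 95.8 in replicates 1 and 2. Likeness was the distance between log2 signals over the 2 replicates, among 2942 genes with a promoter peak in both.

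Among 16 other named ZAD genes matched in the annotation, 9 had an optimal promoter peak, against 31.0% of all protein-coding genes. The strongest were Phs with 475, D19B with 387.5, Zaf1 with 321 and pad with 284, each above M1BP. The others were Sry-delta with 194.9, trem with 163, Sry-beta with 136, Meics with 122 and Odj with 111. Of these 9, all but Odj were present in both replicate sets, and Odj was absent from that of replicate 2. D19A had a promoter peak of 102 in the conservative set alone, and mld had optimal peaks in its span but not at a TSS. The remaining 5, ranshi, nom, Nnk, az2 and Neu2, had no peak in any of the 4 sets. The gene kipf, whose product is a ZAD protein of the piRNA pathway, was named with another capital in the list and is therefore not in the count; its promoter signal was 64.5 in the optimal and conservative sets, with no peak in either replicate set.

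A search of translated coding sequences put these genes in the wider family. The ZAD pattern was the residues C, R, any, C, then 25 to 60 residues, then I, L or V followed by C, any pair and C, within the first 150 residues. It was met by 7 of the 9 proteins, all but ZIPIC and ouib, and by 8 of the 16 other named ones, so it misses many known members. With at least 3 fingers required as well, 61 genes met it. Of these, 32 (52.5%) had an optimal promoter peak, with a median signal of 184, against 31.0% of all protein-coding genes. The 32 include both Zaf1 and CG14711, which had the same signal. Without the members the count was 27 of 54, with a median signal of 242. Of 171 genes with at least 3 fingers and no such pattern, 70 (40.9%) had an optimal promoter peak, with a median of 135. The latter group was added after the values were seen, and it still holds the known ZAD genes that the pattern missed. In the replicate sets the shares were 42.6 and 47.5% for the genes with the pattern, and 28.7 and 29.8% for those without. Across all protein-coding genes they were 23.8 and 26.4%. The median signals there were closer, at 120 and 99.6 for the 61 genes and 110 and 98.5 for the 171. Without the members, the genes with the pattern had 125.8 and 126.2. The strongest of the 61 were CG1792 with 1128 and CG10147 with 967, genes for which no role is given here. Finger counts in the 9 proteins ran from 5 in M1BP, Zif and ouib to 16 in hang, and protein lengths from 312 residues in ouib to 2223 in hang.

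**Figure D3:**
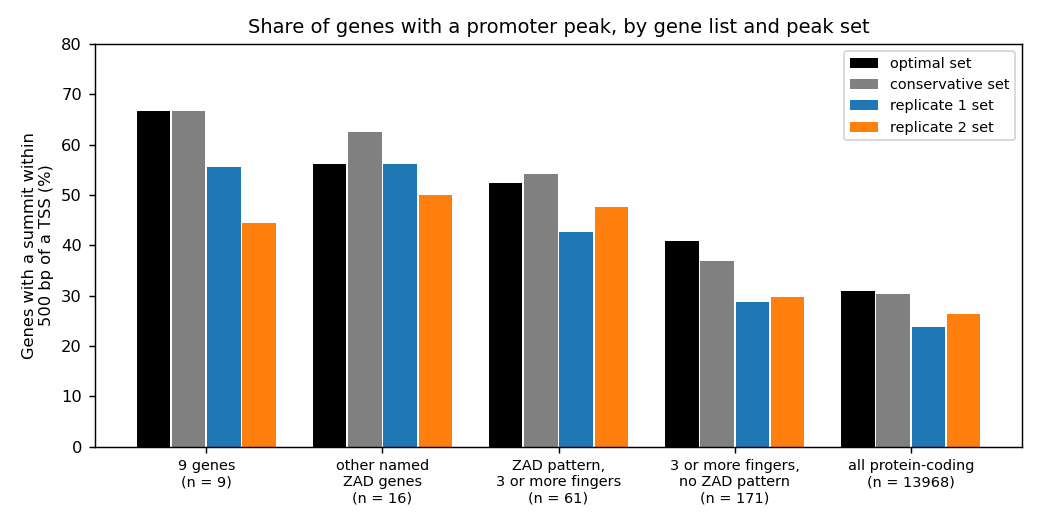
Share of genes (%) with a peak summit within 500 bp of a TSS in the optimal, conservative, replicate 1 and replicate 2 sets, for the 9 genes, 16 other named ZAD genes, 61 genes whose protein holds the ZAD pattern and at least 3 fingers, 171 genes with at least 3 fingers and no such pattern, and all 13968 protein-coding genes. The bars fall from left to right in the optimal set, from 66.7% to 31.0%; the lists overlap and their differences were not tested.

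Some family genes are neighbours, and 2 such clusters hold members. These loci were picked after the values were seen. At 3R:8723174-8731698 the genes nom, ouib, CG8159, ranshi and M1BP lie within 8525 bp. The only peak there in any of the 4 sets was the one upstream of M1BP, near the start of CG8202. At 3R:30035240-30044886, ZIPIC lies with Sry-beta and Sry-delta within 9647 bp, and all 3 had an optimal peak at the TSS, with signals of 83.4, 136 and 194.9. The peak of Sry-beta is also that of Sry-alpha and janA. The replicate sets held the peaks of Sry-beta (59.2 and 81.1 in replicates 1 and 2) and Sry-delta (86.3 and 114), but not that of ZIPIC.

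Of 11 genes known as partners or targets of the members, 8 had an optimal promoter peak, against 31.0% of all protein-coding genes. Among the cofactor genes, Chro had 1721, Cp190 836, pzg 538.5 and gfzf, which encodes a partner of M1BP at promoters, 252. Among the targets and pathway genes, dnc had 727, aPKC 260, Myd88 176.5 and Tl 68.65. The Tl promoter peak was in the optimal set only. At cort, spok and Orc4 there was no peak in any set. Regulator and target did not follow 1 pattern in the optimal set: Zif and aPKC both had a peak, ouib and spok both had none, and grau had one without one at cort. There was none at wek, but one at each of the Toll pathway genes Myd88 and Tl.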

How the data were processed

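The members and gene lists were chosen with earlier results of these data known. The deposited files hold peaks on dm6, which the authors made with IDR, per the labels and the deposited file lists. Replicate sets derive from alignments of that replicate and the others from both. Aligner, peak caller and control are not stated. The authors' score is a scaled IDR, capped at 1000, with 830 as the lowest value in each thresholded set. The deposited signal has no stated scale. The authors' ranked tables give −log10 of the global IDR. Depth is unknown.

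Summits on the major chromosome arms were assigned with Python 3.11.15 to genes of Ensembl release 115 (BDGP 6.54), without transposable elements. A replicate value is the strongest ranked peak overlapping the optimal peak by at least 1 bp. Percentiles and ranks are within a set. Assignment was tested on simulated peaks. No test across genes was made. The ZAD pattern and the motif background, planned for RefSeq tables, used translated coding sequences and windows on annotated TSSs. Named genes were the members, genes sharing their peaks, listed genes with an optimal promoter peak and the 3 nearest in replicate signal. The cluster genes, CG1792, CG10147, CG14711, idc, kipf and listed genes without a peak were added after their values were seen.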

Additional observations from a re-analysis of the deposited data

How the results depend on the processing

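The count of members with a promoter peak, 6 of 9, was unchanged in the conservative set, with a TSS window of 1000 bp, with 1 TSS per gene and with any peak base counted. It was 4 to 5 with 1 replicate left out, 4 at a global IDR of 0.001 (taken from the pooled ranked table, since the score is capped), 4 in the stronger 50% of the peaks and 5 with a window of 200 bp, where M1BP was lost. The share of all protein-coding genes fell too, from 31.0% to 23.5% at that IDR, 20.5% in the stronger peaks and 24.5% at 200 bp. Counting the gene span gave the same member counts, but higher shares of all protein-coding genes. These were 35.4% in the optimal set, 26.7% at that IDR, 23.4% in the stronger peaks and 31.0% at 200 bp. Over 11 alternatives, the other named ZAD genes gave 7 to 10 of 16, those with the ZAD pattern 24 to 34 of 61, and partners and targets 7 to 8 of 11, while the share of all protein-coding genes ran from 20.5 to 34.4%. Alternatives added after the data were seen, all pooled ranked rows past the threshold (6322 against 6148) and the removal of peaks that overlap a stronger one, left 6 of 9. The percentile of a member's promoter peak within its set moved most for Zif, from 64.1 in the optimal set to 36.3 in that of replicate 2 alone, and for hang, from 63.7 to 40.9 in that of replicate 1. The sets come from different reads and differ in length, so these shifts are not a measure of change in binding. Their cause was not tested. No paired analysis was possible because the series holds 1 group. With 2 replicates and no read depth, a peak missing from a set is not shown to be absent.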
